A study of Homo sapiens with 14 samples.

Results

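The genes of fatty acid and glycerolipid synthesis were examined in UM1, an established cell line from a human squamous carcinoma of the tongue. They are 34 genes chosen by name for the steps they serve: acetyl-CoA supply, fatty acid synthesis, desaturation, elongation, activation to acyl-CoA, glycerolipid assembly, lipolysis and the regulators of these steps. Of the 34, 32 were listed in each of the 2 RNA-seq tables, which hold 16237 genes for the PRMT5 knockdown and 16137 genes for the ΔNp63α overexpression. THRSP and LIPE were listed in neither, and both tables list only genes with a value above 0 in every library. The knockdown sets 2 libraries of cells carrying a hairpin against PRMT5 (shPRMT5) beside 2 of cells carrying a hairpin against GFP (shGFP). The overexpression sets 3 libraries of cells overexpressing ΔNp63α, a product of the TP63 gene, beside 3 with the vector. All are cultures of the same line. The labels name no hairpin sequence, clone, promoter or culture time, and they call the libraries biological replicates without saying whether the cultures were separate, so the p-values measure the spread between these libraries, which may be technical. The series asks how PRMT5, an arginine methyltransferase, bears on transcription by ΔNp63α.

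In lipogenesis, cytosolic acetyl-CoA is carboxylated and built into palmitate by fatty acid synthase. Elongases and desaturases turn palmitate into longer and unsaturated chains, acyl-CoA synthetases activate the chains, and acyltransferases, lipins and diacylglycerol acyltransferases place them on glycerol to give phospholipid precursors and triglyceride. SREBF1 encodes SREBP-1, the transcription factor best known for driving many of these enzymes, and lipases return the fatty acids from the stored lipid.

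Values are TPM, a length-scaled transcript level relative to the library's total that the authors deposited. Folds are differences of log2(TPM + 1), tested with limma, and a call is an adjusted p under 0.05 by the Benjamini-Hochberg method over all genes tested. Such folds understate changes of genes with low TPM. The 2 tables were normalized separately, so folds and not levels are set across them. PRMT5 stood at 29.3 and 33.6 TPM in shPRMT5 libraries, against 143 and 126 TPM in shGFP libraries. TP63 stood at 152, 160.4 and 168 TPM in ΔNp63α libraries, against 138, 82.3 and 97.3 TPM in vector libraries, a log2 fold of 0.62 (limma adjusted p = 0.0300). That call was lost when any library other than vector replicate 1 was left out, with folds of 0.46 to 0.66. PRMT5 in that table stood at 131, 97.0 and 118 TPM in ΔNp63α libraries, against 95.4, 61.1 and 68.6 TPM in vector libraries, a log2 fold of 0.63 (limma adjusted p = 0.0325). The PRMT5 call there was lost without the intensity trend (limma adjusted p = 0.0552), and also without ΔNp63α replicate 1 or 3 or vector replicate 2 or 3, with folds of 0.49 to 0.61. All 9 squamous epithelial markers examined were listed in both tables. Of the 6 adipocyte markers examined, ADIPOQ, LEP and LIPE were listed in neither table. The listed ones (3 of 6 in the knockdown, 1 of 6 in the overexpression) summed to at most 2.6 TPM in any library. FABP4, a carrier of fatty acids given at the end, was not on this list.

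PRMT5 knockdown was accompanied by higher levels of some of these genes. The largest folds were those of the acyl-CoA synthetase ACSL1, the phosphatidate phosphatase LPIN1 and the desaturase SCD. Other enzymes between acetyl-CoA and diacylglycerol, among them ACACA, GPAM and AGPAT2, were not called. Of the 32 members tested, 10 were called higher (ACLY, FASN, SCD, FADS1, ELOVL5, ACSL1, ACSL5, SREBF1, AGPAT3 and LPIN1) and 1 was called lower (MGLL). Among all 12635 genes tested, 15.1% were called higher and 3.48% lower, against 31.2% and 3.12% of the members. The median log2 fold was 0.48 over the members and 0.25 over all genes, so the whole table was shifted upward. Rescaling the libraries by the median of ratios moved the median of all genes to 0.0022 and that of the members to 0.21. On that scale 4 members were called higher (SCD, ACSL1, ACSL5 and LPIN1) and MGLL lower, where 3.63% of all genes were called higher and 6.89% lower. After quantile normalization FASN, SCD, SREBF1, ACLY, FADS1, ACSL1 and LPIN1 were called higher and MGLL lower, while ACSL5, ELOVL5 and AGPAT3 were not called. SCD, ACSL1, LPIN1 and MGLL were thus called on all 3 scales.

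**Figure D1:**
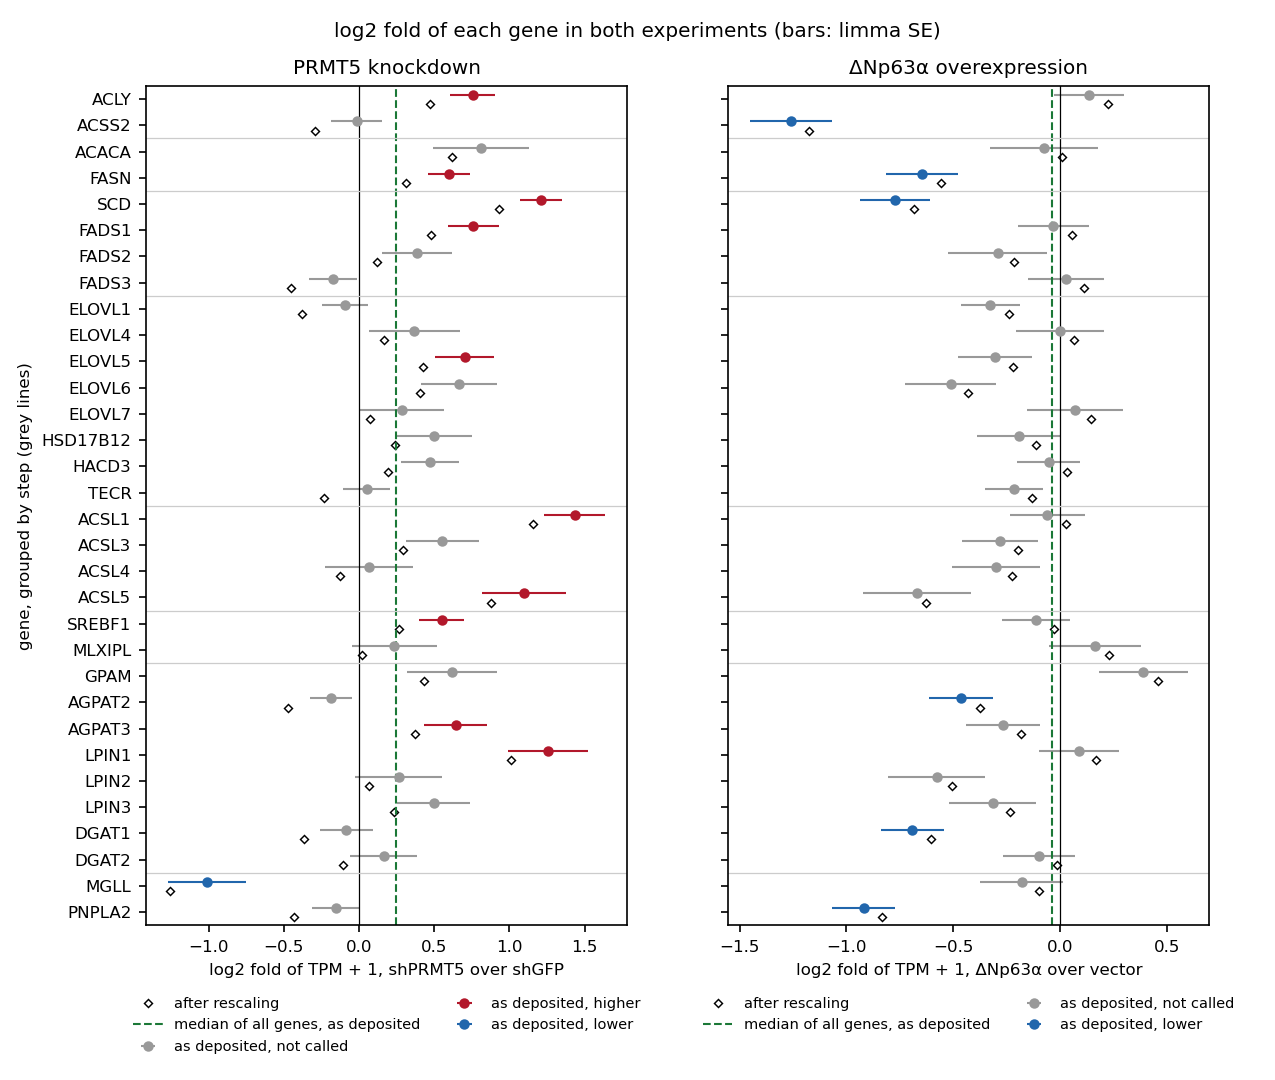
Log2 folds of the 32 listed members, ordered by step, for shPRMT5 against shGFP and for ΔNp63α against vector, on the log2(TPM + 1) scale. Circles with limma standard errors are the fits of the deposited TPM, red where called higher, blue where called lower and grey where not called, open diamonds are the folds after rescaling, and dashed lines mark the median of all genes tested, 0.25 and −0.04. ACSL1, LPIN1 and SCD stand farthest right in the knockdown, MGLL farthest left there, and ACSS2 farthest left in the overexpression.

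At the start of the pathway the 2 routes to acetyl-CoA gave unlike values. ACLY, which cleaves citrate, had 366 and 427 TPM in shPRMT5 libraries, against 253 and 217 TPM in shGFP libraries, without overlap (log2 fold 0.76, SE 0.15, limma adjusted p = 0.00132). ACSS2, which activates acetate, had 115 and 109 TPM in shPRMT5 libraries, against 127 and 101 TPM in shGFP libraries, and the groups overlapped. FASN, the fatty acid synthase, had 1059 and 1183 TPM in shPRMT5 libraries, against 837 and 653 TPM in shGFP libraries (log2 fold 0.60, SE 0.14, limma adjusted p = 0.00463). It had the highest mean TPM of the 32 members in this table. After rescaling, ACLY stood at a fold of 0.47 and FASN at 0.31, neither of them called (adjusted p = 0.0877 and 0.268 by limma). Without shPRMT5 replicate 2 both calls were also lost, with folds of 0.65 for ACLY and 0.52 for FASN.

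ACACA, the acetyl-CoA carboxylase that makes malonyl-CoA, was not called, with 1.70 and 4.52 TPM in shPRMT5 libraries, against 1.24 and 1.17 TPM in shGFP libraries (log2 fold 0.81, SE 0.32, limma adjusted p = 0.0737). The fold rests on shPRMT5 replicate 2: it was 1.33 and called without replicate 1, and 0.29 and not called without replicate 2. Its mean was 2.16 TPM over the knockdown table and 65.3 TPM over the overexpression table, a log2 ratio of −4.92. The 6 neighbouring genes listed in both tables had log2 ratios of −6.52 to −1.58, whereas the median over the 14951 shared genes was −0.19. The low ACACA values in the knockdown table thus go with low values of its neighbours there, and what set them was not tested.

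The desaturases divided. SCD, which puts the first double bond into stearate and palmitate, had 736 and 854 TPM in shPRMT5 libraries, against 351 and 333 TPM in shGFP libraries, a ratio of means of 2.32 (log2 fold 1.21, SE 0.14, limma adjusted p = 1.33e-06). Both shPRMT5 values exceeded both shGFP values by a wide margin, and SCD was called after rescaling (0.93, adjusted p = 0.00189) and with any library left out (1.10 to 1.32). FADS1, a desaturase of polyunsaturated chains, had 103 and 121 TPM in shPRMT5 libraries, against 66.4 and 64.6 TPM in shGFP libraries (log2 fold 0.76, SE 0.17, limma adjusted p = 0.00375). FADS1 was at 0.48 and not called after rescaling (adjusted p = 0.0891), and its call was lost without either shPRMT5 library (0.88 without replicate 1, 0.65 without replicate 2). FADS2, the other desaturase of that route, overlaps FADS1 in the genome and was not called, at a log2 fold of 0.38. FADS3, related to both by sequence, had 133 and 137 TPM in shPRMT5 libraries, against 165 and 140.2 TPM in shGFP libraries, and was not called at −0.17.

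Of the 8 genes of elongation, 1 (12.5%) was called higher and 0 lower, where 15.1% and 3.48% of all genes were. The share called higher was thus near that of all genes, and 0 of the 8 were called after rescaling. ELOVL5, which extends polyunsaturated chains, had 47.5 and 60.0 TPM in shPRMT5 libraries, against 28.8 and 36.5 TPM in shGFP libraries (log2 fold 0.70, SE 0.20, limma adjusted p = 0.0161). The groups did not overlap, yet the fold was 0.43 and not called after rescaling (adjusted p = 0.167). The call was also lost without shPRMT5 replicate 1 (0.87) or replicate 2 (0.54). ELOVL6, which extends palmitate, had 14.2 and 16.6 TPM in shPRMT5 libraries, against 7.08 and 12.2 TPM in shGFP libraries (log2 fold 0.67, limma adjusted p = 0.0625). Among the partner enzymes of the elongation cycle, the reductase HSD17B12 was at 0.50, the dehydratase HACD3 at 0.47 and the reductase TECR at 0.05, none of them called. The remaining elongases ELOVL1, ELOVL4 and ELOVL7 were not called, at −0.10, 0.37 and 0.29.

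The acyl-CoA synthetases held the largest fold of the members. ACSL1 had 46.2 and 55.9 TPM in shPRMT5 libraries, against 16.1 and 20.5 TPM in shGFP libraries, a ratio of means of 2.79 (log2 fold 1.43, SE 0.21, limma adjusted p = 3.84e-05). It was called after rescaling (1.16, adjusted p = 0.00103) and with any library left out (1.27 to 1.60). ACSL5, the isoform of mitochondria and endoplasmic reticulum, had 5.30 and 5.97 TPM in shPRMT5 libraries, against 1.83 and 2.39 TPM in shGFP libraries (log2 fold 1.10, SE 0.28, limma adjusted p = 0.00853). It was called after rescaling (0.88, adjusted p = 0.0298), but not after quantile normalization (0.81, adjusted p = 0.0565 by limma) and not without shPRMT5 replicate 2 (1.02) or shGFP replicate 1 (0.96). ACSL3, an isoform found on lipid droplets, and ACSL4, which prefers arachidonate, were not called, at 0.55 and 0.07.

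SREBF1 had 374 and 381 TPM in shPRMT5 libraries, against 289 and 229.8 TPM in shGFP libraries, without overlap (log2 fold 0.55, SE 0.15, limma adjusted p = 0.0131). After rescaling it was at 0.27 and not called (adjusted p = 0.349), and the call was lost without shPRMT5 replicate 1 (0.56) or replicate 2 (0.54). MLXIPL, which encodes the carbohydrate-responsive factor ChREBP, was not called, at 0.23. RNA levels do not show how much SREBP-1 was cleaved to its active form.

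In glycerolipid assembly LPIN1 and AGPAT3 were the members called. LPIN1, a phosphatidate phosphatase that makes diacylglycerol, had 9.02 and 12.8 TPM in shPRMT5 libraries, against 4.27 and 3.60 TPM in shGFP libraries (log2 fold 1.26, SE 0.26, limma adjusted p = 0.00209). It was called after rescaling (1.01, adjusted p = 0.00914), but not without shPRMT5 replicate 2 (1.02, adjusted p = 0.0951). AGPAT3, an acyltransferase that acts on lysophosphatidate, had 26.8 and 29.2 TPM in shPRMT5 libraries, against 19.1 and 16.1 TPM in shGFP libraries (log2 fold 0.64, SE 0.21, limma adjusted p = 0.0351). It was at 0.37 and not called after rescaling (adjusted p = 0.239), nor without shPRMT5 replicate 1 (0.70) or replicate 2 (0.58). AGPAT2, which catalyses the same step, had 544 and 510.2 TPM in shPRMT5 libraries, against 637 and 565 TPM in shGFP libraries, with both shPRMT5 values the lower ones, and was not called (−0.19).

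The enzymes that close the triglyceride, and those that open it, had other values. DGAT1 had 71.8 and 65.7 TPM in shPRMT5 libraries, against 76.8 and 69.2 TPM in shGFP libraries, with overlap (log2 fold −0.08). DGAT2, the other diacylglycerol acyltransferase, had 17.5 and 19.6 TPM in shPRMT5 libraries, against 18.4 and 14.6 TPM in shGFP libraries, with overlap (log2 fold 0.16, and −0.10 after rescaling). The acyltransferase GPAM, at the first step of assembly, and the lipins LPIN2 and LPIN3 were not called, at 0.62, 0.26 and 0.49. MGLL, which splits monoacylglycerol, was the member called lower, with 4.14 and 5.42 TPM in shPRMT5 libraries, against 11.9 and 9.37 TPM in shGFP libraries (log2 fold −1.01, SE 0.26, limma adjusted p = 0.00911). After rescaling it was at −1.26 (adjusted p = 0.00189), while without shPRMT5 replicate 1 or shGFP replicate 1 it was not called (−0.85 in both cases). PNPLA2, the lipase that starts triglyceride breakdown, had 145 and 144 TPM in shPRMT5 libraries, against 179 and 144 TPM in shGFP libraries, and was not called (−0.15).

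Over all members, both shPRMT5 values lay above both shGFP values for 21 of 32 and below them for 3 (FADS3, AGPAT2 and MGLL), where 49.0% of all genes tested lay wholly above and 14.0% wholly below. The 32 members summed to 4370 and 4644 TPM in shPRMT5 libraries, against 3595 and 3119 TPM in shGFP libraries, and FASN with SCD made up 41.1% and 43.9% of that sum, against 33.1% and 31.6%. The 4 listed of 6 fibroblast markers summed to 9.4 to 11.8 TPM in shPRMT5 libraries, against 6.8 to 9.0 TPM in shGFP libraries, and the 3 listed adipocyte markers to 2.3 to 2.6 TPM, against 1.7 to 1.8 TPM. The squamous markers overlapped, at 13510 to 13654 TPM in shPRMT5 libraries and 12834 to 14416 TPM in shGFP libraries. The part of these markers in the result was not tested. In bulk RNA, fewer cells of a kind and less RNA per cell cannot be told apart. Without the filter on low values SREBF1, ELOVL5, AGPAT3 and MGLL were not called, and without the intensity trend ACLY, FASN, SREBF1, ELOVL5 and AGPAT3 were not. In 1 fit over both tables FASN and SREBF1 were not called. The call count rests on few libraries: it was 2 higher and 1 lower without shPRMT5 replicate 2, with SCD, ACSL1 and MGLL kept, and 14 higher and 3 lower without shGFP replicate 2, where a lone library is assumed to vary like those of the other group.

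**Figure D2:**
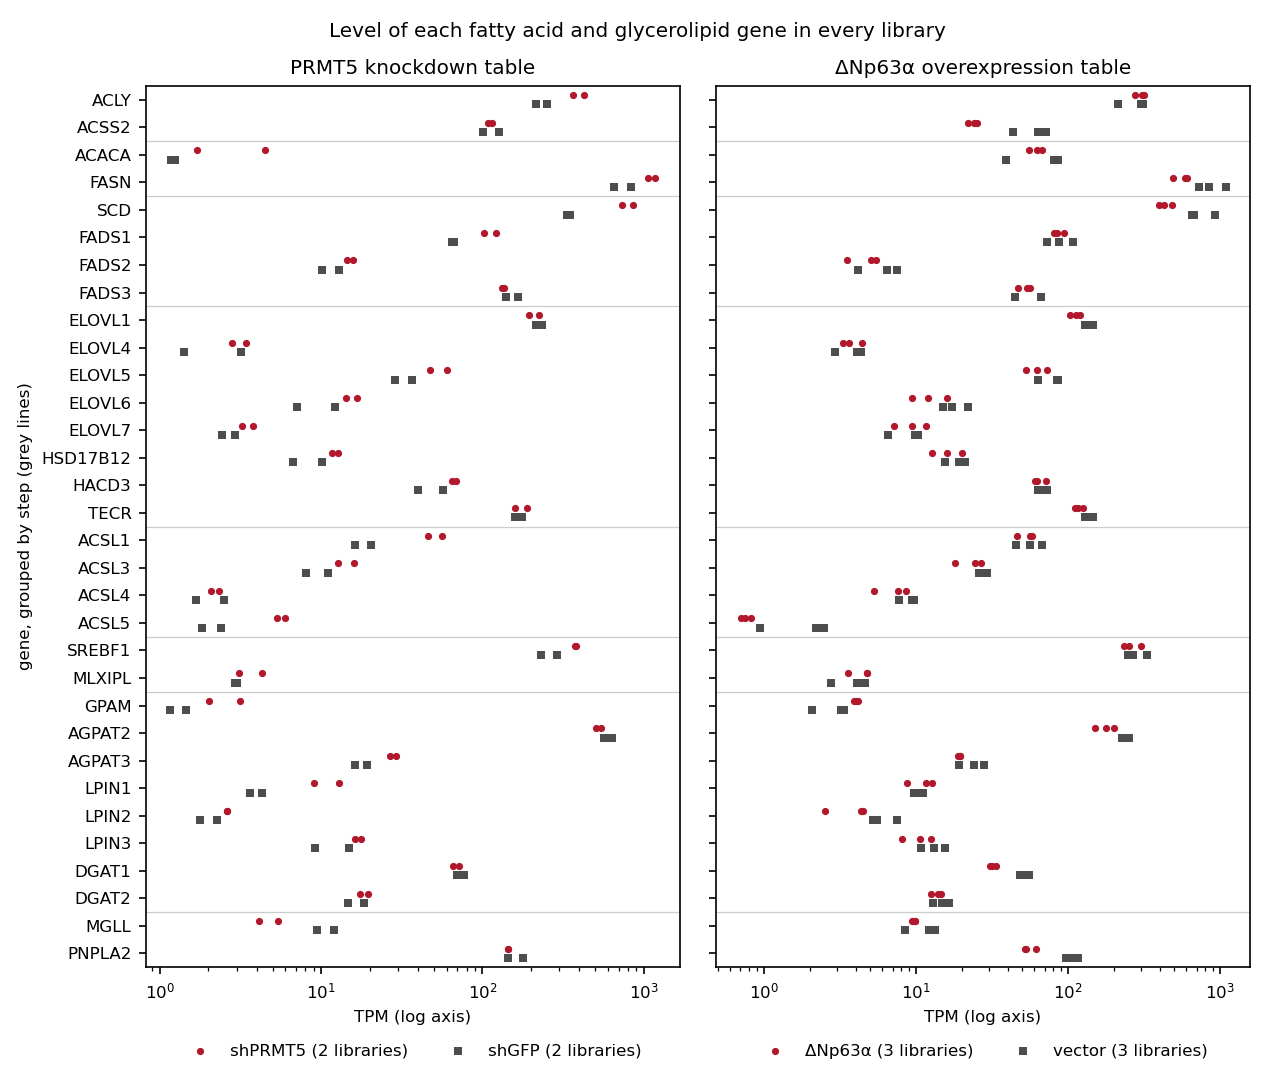
TPM on a log axis of the 32 listed members, ordered by step, with 1 point per library: circles for shPRMT5 and ΔNp63α, squares just below them for shGFP and vector. SCD lies between 736 and 854 TPM in shPRMT5 libraries and between 333 and 351 TPM in shGFP libraries, and between 394 and 486 TPM in ΔNp63α libraries and between 656 and 926 TPM in vector libraries.

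The promoters of 4 genes called higher are shown because these genes lead the calls at their steps. Each is the RefSeq window of 300 bases, 250 before and 50 after an annotated start, on GRCh38.p14 and 5′ to 3′ on the gene's strand. Capitals mark matches, on either strand, to 4 short motifs: TCACNCCAC, resembling a sterol regulatory element; CACGTG, an E-box; CCAAT, the core bound by NF-Y; and GGGCGG, the core bound by Sp1. SCD lies at chr10:100346983-100347282 on the plus strand, ACLY at chr17:41918973-41919272 on the minus strand and SREBF1 at chr17:17836937-17837236 on the minus strand. ACSL1, in 1 of its 5 windows, lies at chr4:184805504-184805803 on the minus strand. That window is the only one of the 5 with a match to TCACNCCAC. The other ACSL1 windows have matches to GGGCGG alone or to none of the motifs.
SCD: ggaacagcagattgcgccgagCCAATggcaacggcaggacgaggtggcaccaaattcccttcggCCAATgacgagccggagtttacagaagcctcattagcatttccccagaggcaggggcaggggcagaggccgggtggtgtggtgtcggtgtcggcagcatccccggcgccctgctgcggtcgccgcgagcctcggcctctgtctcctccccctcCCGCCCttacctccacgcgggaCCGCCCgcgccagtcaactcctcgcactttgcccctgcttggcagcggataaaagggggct
ACLY: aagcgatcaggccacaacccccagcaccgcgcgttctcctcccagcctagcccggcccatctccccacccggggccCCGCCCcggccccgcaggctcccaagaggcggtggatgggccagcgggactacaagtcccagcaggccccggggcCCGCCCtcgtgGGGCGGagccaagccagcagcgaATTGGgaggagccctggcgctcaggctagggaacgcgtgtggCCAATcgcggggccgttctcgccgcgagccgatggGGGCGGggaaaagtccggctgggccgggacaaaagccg
SREBF1: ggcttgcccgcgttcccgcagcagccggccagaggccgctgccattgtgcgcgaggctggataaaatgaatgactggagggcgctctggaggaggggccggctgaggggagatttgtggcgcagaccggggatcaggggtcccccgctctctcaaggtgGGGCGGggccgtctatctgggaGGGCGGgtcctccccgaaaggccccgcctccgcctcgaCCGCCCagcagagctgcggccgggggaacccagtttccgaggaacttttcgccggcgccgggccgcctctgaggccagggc
ACSL1: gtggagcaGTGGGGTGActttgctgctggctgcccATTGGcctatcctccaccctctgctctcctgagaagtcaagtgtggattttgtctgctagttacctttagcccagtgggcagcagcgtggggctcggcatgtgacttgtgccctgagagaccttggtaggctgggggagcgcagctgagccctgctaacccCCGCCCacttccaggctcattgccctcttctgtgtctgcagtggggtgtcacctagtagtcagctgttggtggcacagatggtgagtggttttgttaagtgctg

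Windows were found for 28 of the 34 genes, 45 in all, and matches may share bases. The GGGCGG core was in a window of 24 of these 28 genes, against 48.3% of all 27305 genes with a window. CCAAT was in a window of 17 of the 28 members, against 39.7% of all genes. CACGTG was in windows of 3 members (ELOVL4, ELOVL5 and LPIN2), against 8.77% of all genes, and TCACNCCAC in windows of ACSL1 and PNPLA2, against 1.39% of all genes. Genes with more windows have more room for a match. The background of all genes with a window was not limited to genes tested here, nor matched for expression. Counted by window, GGGCGG was in 31 of the 45, against 45.0% of all 35116 windows, and CCAAT in 21, against 34.6%. CACGTG was in 3 of the 45, against 7.26%, and TCACNCCAC in 2, against 1.13%. A match is a run of letters and not a bound site, and its absence from a window says nothing of the factor.

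ΔNp63α overexpression was accompanied by lower levels of 6 members: ACSS2, FASN, SCD, AGPAT2, DGAT1 and PNPLA2. No member was called higher by limma, 4 of the 26 uncalled members had an unadjusted p under 0.05, and 1 member, GPAM, was called higher after quantile normalization. Among all 13382 genes tested, 7.34% were called higher and 14.1% lower, against 0.00% and 18.8% of the members, so the share called lower was not far from that of the table. The median log2 fold was −0.24 over the members and −0.04 over all genes. After rescaling these medians were −0.16 and 0.04, and 5 members were called lower, without AGPAT2, where 11.2% of all genes were called higher and 12.7% lower. The 9 squamous markers summed to 18615 to 34067 TPM in ΔNp63α libraries, against 7954 to 14892 TPM in vector libraries. The fibroblast list, of which 4 of 6 genes were listed and COL1A2 and DCN were not, summed to 43.1 to 62.0 TPM in ΔNp63α libraries, against 30.2 to 38.7 TPM in vector libraries. No leukocyte marker of 5 was listed. The part of these cell type markers in the result was not tested.

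ACSS2 gave the largest fold of the members. It had 25.3, 23.9 and 22.0 TPM in ΔNp63α libraries, against 43.3, 63.4 and 71.9 TPM in vector libraries, so that it was 2.50-fold higher in vector by the ratio of means (log2 fold −1.26, SE 0.19, limma adjusted p = 0.000818). The groups stood well apart, and the call held after rescaling (−1.17, adjusted p = 0.00306) and with any library left out (−1.47 to −1.11). ACLY, the other source of acetyl-CoA, had 304, 275 and 313 TPM in ΔNp63α libraries, against 301, 212 and 309 TPM in vector libraries, with overlapping groups and no call (0.13). ACACA had 62.3, 55.5 and 67.6 TPM in ΔNp63α libraries, against 81.2, 39.2 and 85.8 TPM in vector libraries, and vector replicate 2 lay below all others (−0.08, not called).

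FASN had 588, 487 and 601 TPM in ΔNp63α libraries, against 842, 724 and 1084 TPM in vector libraries, without overlap (log2 fold −0.65, SE 0.17, limma adjusted p = 0.0176). It was called after rescaling (−0.56, adjusted p = 0.0484), but not without ΔNp63α replicate 2 (−0.55) or vector replicate 3 (−0.49). SCD had 394, 429.8 and 486 TPM in ΔNp63α libraries, against 656, 677 and 926 TPM in vector libraries, and again no value of one group reached the other (log2 fold −0.77, SE 0.16, limma adjusted p = 0.00587). The SCD call held after rescaling (−0.69, adjusted p = 0.0176) and with any library left out (−0.86 to −0.62). The other desaturases FADS1, FADS2 and FADS3 were not called, at −0.03, −0.29 and 0.03.

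No gene of elongation or activation was called. Their folds ran from −0.51 for ELOVL6 to 0.07 for ELOVL7 in elongation, and from −0.67 for ACSL5 to −0.06 for ACSL1 in activation. ACSL5 had 0.819, 0.700 and 0.749 TPM in ΔNp63α libraries, against 0.939, 2.21 and 2.49 TPM in vector libraries (limma adjusted p = 0.0797). Its groups did not overlap, yet vector replicate 1 lay close to the ΔNp63α values, and the gene was called when that library was left out (−0.93). ACSL1, the member with the largest fold in the knockdown, had 46.3, 57.7 and 56.4 TPM in ΔNp63α libraries, against 45.2, 56.4 and 67.0 TPM in vector libraries, with interleaved values. SREBF1 had 299.8, 232 and 249.6 TPM in ΔNp63α libraries, against 332, 247 and 268 TPM in vector libraries, also interleaved (−0.11, not called), and MLXIPL was at 0.16.

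In glycerolipid assembly DGAT1 had 33.5, 30.4 and 31.5 TPM in ΔNp63α libraries, against 55.2, 48.0 and 52.8 TPM in vector libraries (log2 fold −0.69, SE 0.15, limma adjusted p = 0.00613). The 3 values of each group lay close together and far from the other group, and the call held after rescaling (−0.61, adjusted p = 0.0114) and with any library left out (−0.75 to −0.65). DGAT1 overlaps HSF1 in the genome, and the use of strand in counting is not stated. DGAT2 had 13.8, 12.5 and 14.7 TPM in ΔNp63α libraries, against 14.8, 13.0 and 16.6 TPM in vector libraries, with overlap (−0.10, not called). AGPAT2 had 201, 149.7 and 177 TPM in ΔNp63α libraries, against 253, 247 and 225 TPM in vector libraries (log2 fold −0.46, SE 0.15, limma adjusted p = 0.0443). Its groups did not overlap, but it was at −0.38 and not called after rescaling (adjusted p = 0.138). Leaving out ΔNp63α replicate 2 or 3, or any vector library, also ended the AGPAT2 call (−0.51 to −0.35). LPIN1 had 8.67, 12.7 and 11.6 TPM in ΔNp63α libraries, against 9.85, 9.66 and 11.1 TPM in vector libraries, with overlap (0.09). GPAM, AGPAT3, LPIN2 and LPIN3 were not called, at 0.39, −0.27, −0.58 and −0.32, and GPAM was the member whose 3 ΔNp63α values all lay above the vector values.

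PNPLA2, the lipase of the first step of triglyceride breakdown, had 51.7, 53.2 and 61.5 TPM in ΔNp63α libraries, against 116, 97.5 and 104 TPM in vector libraries (log2 fold −0.92, SE 0.15, limma adjusted p = 0.00114). Every ΔNp63α value was far below every vector value, and the call held after rescaling (−0.83, adjusted p = 0.00176) and with any library left out (−0.99 to −0.85). MGLL, the member called lower in the knockdown, was not called here, at −0.18. PNPLA2 is shown because its window, at chr11:818664-818963 on the plus strand of GRCh38.p14, and that of ACSL1 are those with a match to TCACNCCAC, in capitals with the match to GGGCGG.
PNPLA2: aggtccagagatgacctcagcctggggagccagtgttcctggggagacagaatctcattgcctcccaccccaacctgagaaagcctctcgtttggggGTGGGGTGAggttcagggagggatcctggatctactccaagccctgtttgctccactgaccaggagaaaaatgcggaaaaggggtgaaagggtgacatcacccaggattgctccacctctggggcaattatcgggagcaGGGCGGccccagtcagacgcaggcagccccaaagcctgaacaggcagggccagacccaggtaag

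For 10 members all 3 ΔNp63α values lay below all 3 vector values and for 1 above, where 23.7% of all genes tested lay wholly below and 14.2% wholly above. The 32 members summed to 2636, 2449 and 2729 TPM in ΔNp63α libraries, against 3463, 3117 and 3979 TPM in vector libraries. FASN with SCD made up 37.3%, 37.4% and 39.8% of the sum in ΔNp63α libraries, against 43.3%, 44.9% and 50.5% in vector libraries.

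**Figure D3:**
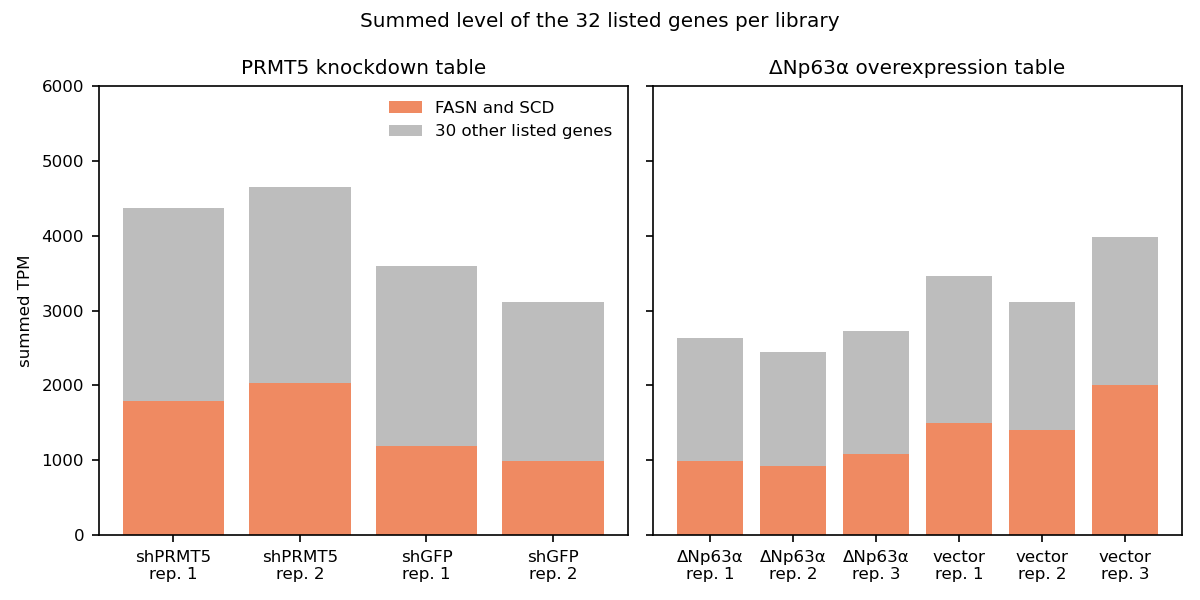
Summed TPM of the 32 listed members in each library, split into FASN with SCD and the other 30 genes, with shPRMT5 left of shGFP and ΔNp63α left of vector. The sums are 4370 and 4644 TPM against 3595 and 3119 TPM in the knockdown, and 2449 to 2729 TPM against 3117 to 3979 TPM in the overexpression.

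FASN and SCD were called in both experiments, higher with PRMT5 knockdown and lower with ΔNp63α overexpression. The knockdown call of FASN was lost after rescaling, without the intensity trend (limma adjusted p = 0.0962) and in 1 fit over both tables (limma adjusted p = 0.0584). Another 8 members were called higher in the knockdown and not called in the overexpression, 4 were called lower in the overexpression and not called in the knockdown, MGLL was called lower in the knockdown and not called in the overexpression, and 17 were called in neither. The experiments share no library, so the difference of the folds was tested in 1 limma fit over all 10. The knockdown fold was above the overexpression fold for 30 of 32 members, where 72.2% of all genes had a positive difference. Of these, 11 differences were called, all positive, against 16.2% of the 11999 genes tested called positive and 2.50% negative. The median difference was 0.68 over the members and 0.34 over all genes. After rescaling the difference was positive for 23 of 32 members and 50.9% of all genes, and the medians were 0.35 and 0.01. On that scale 4 members were called positive (SCD, ACSL1, ACSL5 and LPIN1) against 6.12% of all genes, and MGLL was called negative against 5.51%. After quantile normalization FASN, SCD, PNPLA2 and ACSL1 were called positive and MGLL negative, so that SCD and ACSL1 were called on all 3 scales.

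SCD had the largest difference, 1.98 (SE 0.24, limma adjusted p = 0.000181), and ACSL5 followed with 1.76 (SE 0.36, adjusted p = 0.00565). In the overexpression ACSL5 averaged 0.756 TPM in ΔNp63α libraries and 1.88 TPM in vector libraries. It thus passed the filter there through the vector group, and its difference was no longer among the calls at a minimum mean of 5 TPM. ACSL1 differed by 1.49 (SE 0.27, limma adjusted p = 0.00323) and FASN by 1.24 (SE 0.25, adjusted p = 0.00575). These 4 differences were called with any of the 10 libraries left out, but that of FASN was 0.87 and not called after rescaling (limma adjusted p = 0.0531). LPIN1 differed by 1.17 (SE 0.30, limma adjusted p = 0.0170), and its call was lost without shPRMT5 replicate 2 (0.94) or shGFP replicate 2 (1.07). After quantile normalization the differences of ACSL5 (1.21) and LPIN1 (0.72) were not called (limma adjusted p = 0.0579 and 0.0847). ACSS2 differed by 1.24 (SE 0.28, limma adjusted p = 0.00947), a call lost without shGFP replicate 2 (1.08) and after rescaling (0.88, adjusted p = 0.0860).

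The remaining called differences, of ELOVL6 (1.18), ELOVL5 (1.01), AGPAT3 (0.91), FADS1 (0.79) and PNPLA2 (0.77), had limma adjusted p values of 0.0229 to 0.0377. None of these 5 was called after rescaling. Leaving out a library gave a range of 0.82 to 1.53 for ELOVL6, 0.84 to 1.17 for ELOVL5, 0.79 to 1.05 for AGPAT3, 0.65 to 0.93 for FADS1 and 0.61 to 0.92 for PNPLA2. The ELOVL6 call was lost without either shPRMT5 library, shGFP replicate 1, ΔNp63α replicate 1 or 3 or vector replicate 3, and the ELOVL5 call without shPRMT5 replicate 2, shGFP replicate 1, ΔNp63α replicate 1 or vector replicate 3. The AGPAT3 and PNPLA2 calls were lost without either shPRMT5 library, shGFP replicate 2 or vector replicate 3, and in addition without ΔNp63α replicate 3 for AGPAT3 and replicate 1 for PNPLA2. The FADS1 call was lost without any library other than vector replicates 1 and 2. The differences of ACLY (0.62, limma adjusted p = 0.0896), SREBF1 (0.66, adjusted p = 0.0658) and DGAT1 (0.61, adjusted p = 0.0570) were not called. MGLL had a difference of −0.83 (limma adjusted p = 0.0694), which was −1.16 and called after rescaling (adjusted p = 0.0135).

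**Figure D4:**
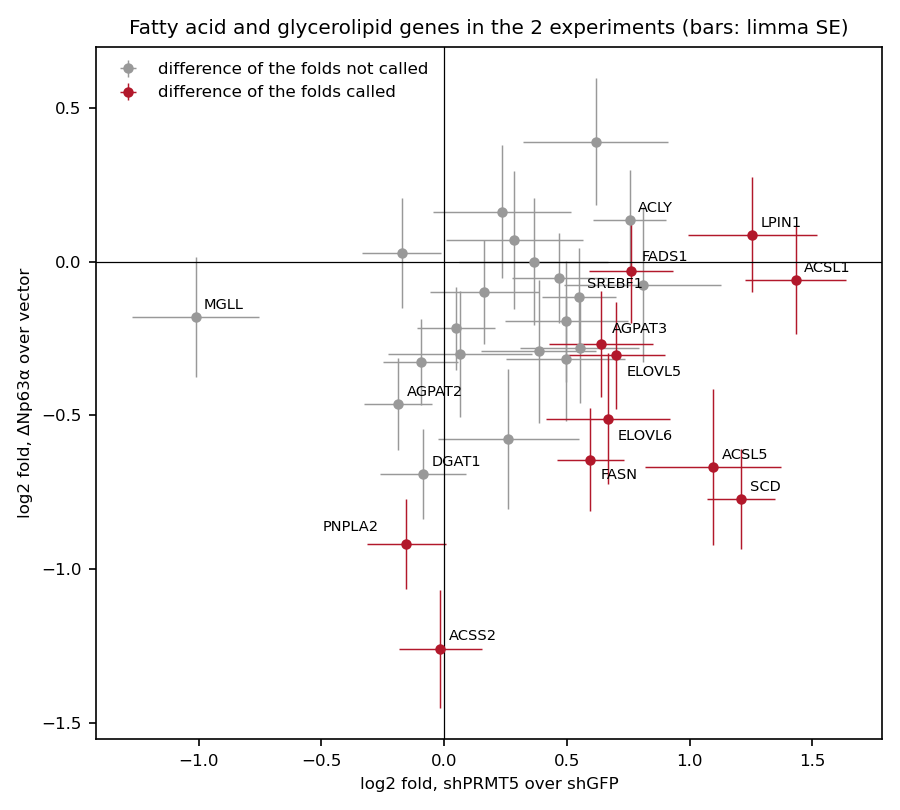
Log2 fold of each listed member for shPRMT5 against shGFP and for ΔNp63α against vector, both on the log2(TPM + 1) scale with limma standard errors. Red points are members whose difference of folds was called, grey points the others. SCD lies at 1.21 in the knockdown and −0.77 in the overexpression, ACSL1 at 1.43 and −0.06, and MGLL at −1.01 and −0.18.

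Further enzymes that catalyse the same steps were examined as a list of 26, chosen with earlier results of these data known. In the knockdown 7 of 19 tested were called higher and 0 lower by limma, against 15.1% and 3.48% of all genes. After rescaling 1 of 19 (5.26%) was called higher, near the 3.63% of all genes. Fewer than the 7 were called without either shPRMT5 library. SCD5, a second stearoyl-CoA desaturase, averaged 24.1 ± 4.5 TPM in shPRMT5 libraries and 12.2 ± 0.9 TPM in shGFP libraries (SD, n = 2 each; log2 fold 0.91, limma adjusted p = 0.00698). The acyltransferases GPAT3 and AGPAT5 were at 0.95 and 0.94, with limma adjusted p values of 0.0161 and 0.00924. GPAT3 and AGPAT5 were not called after rescaling, at 0.72 and 0.68, and none of the 3 was called without shPRMT5 replicate 2 (0.73 for SCD5, 1.02 for GPAT3 and 0.74 for AGPAT5). GPAT3 was also lost without shPRMT5 replicate 1 (0.89) or shGFP replicate 1 (0.79).

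In the overexpression 3 of 20 tested genes of that list were called higher and 4 lower, against 7.34% and 14.1% of all genes. GPAT3, which like GPAM starts glycerolipid assembly, averaged 28.7 ± 2.4 TPM in ΔNp63α libraries and 9.53 ± 0.48 TPM in vector libraries (SD, n = 3 each; log2 fold 1.49, limma adjusted p = 7.96e-05). ACSS1, the mitochondrial counterpart of ACSS2, averaged 4.58 ± 0.60 TPM in ΔNp63α libraries and 1.20 ± 0.22 TPM in vector libraries (SD, n = 3 each; log2 fold 1.34, limma adjusted p = 0.000741). ACSS1 and ACSS2 were thus called in opposite directions. PLPP3, a lipid phosphate phosphatase, averaged 0.262 ± 0.240 TPM in ΔNp63α libraries and 4.60 ± 1.92 TPM in vector libraries (SD, n = 3 each; log2 fold −2.11, limma adjusted p = 0.000301). These 3 calls held after rescaling and with any library left out. PLPP3 averaged under the filter's 1 TPM in ΔNp63α libraries, with an SD near the mean, and was tested only through its vector values.

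Of 11 tested genes of SREBP processing and LXR signalling, which set the activity of SREBP-1, 2 were called higher and 0 lower by limma in the knockdown, against 15.1% and 3.48% of all genes, and 0 higher and 4 lower in the overexpression, against 7.34% and 14.1%. The 2 of 11 (18.2%) in the knockdown is near the share of the table, and it was 1 without shPRMT5 replicate 1 and 0 without replicate 2, while the 4 were 2 without vector replicate 3. INSIG1, which holds SREBP in the endoplasmic reticulum and is itself an SREBP target, averaged 407 ± 49 TPM in shPRMT5 libraries and 287 ± 22 TPM in shGFP libraries (SD, n = 2 each; log2 fold 0.50, limma adjusted p = 0.0203). It averaged 166 ± 54 TPM in ΔNp63α libraries and 412 ± 125 TPM in vector libraries (SD, n = 3 each; log2 fold −1.31, limma adjusted p = 0.00534). INSIG2, its paralog, averaged 7.59 ± 2.48 TPM in ΔNp63α libraries and 22.1 ± 7.0 TPM in vector libraries (SD, n = 3 each; log2 fold −1.42, limma adjusted p = 0.00349). MYLIP, a ubiquitin ligase and LXR target, was at 0.75 in the knockdown and −0.67 in the overexpression (limma adjusted p = 0.0430 and 0.0173).

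The overexpression calls of these 3 genes held after rescaling, at −1.23 for INSIG1, −1.34 for INSIG2 and −0.58 for MYLIP. The knockdown calls of INSIG1 and MYLIP did not, at 0.22 and 0.50 (limma adjusted p = 0.442 and 0.178). On that scale 0 of 11 genes of the list were called higher and 1 (9.09%) lower, against 3.63% and 6.89% of all genes. The gene called lower was the LXR gene NR1H2 at −0.74 (limma adjusted p = 0.0152), which was named after its values were seen. INSIG1 was not called in the knockdown without shPRMT5 replicate 1 (0.62) or replicate 2 (0.38), and MYLIP without shPRMT5 replicate 2 (0.45) or shGFP replicate 1 (0.59). In the overexpression the MYLIP call was lost without ΔNp63α replicate 1 (−0.57) or vector replicate 3 (−0.67).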

How the data were processed

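RNA-seq was carried out on UM1 cells in 10 libraries. The titles gave each library's group and number, and 4 CUT&Tag samples are not analysed here. The authors deposited TPM in 1 table per experiment. The submitters' processing notes name DESeq2 1.24.0, FastQC, featureCounts and Bowtie, and hg19 and GRCh37 as builds, without saying what each was used for. No source used here says which tool computed the TPM. Every library totals 1000000 and 0 values are 0. The knockdown table lists 0 mitochondrially encoded genes and that of the overexpression 16. The depth is unknown, and counting intervals are therefore not given. Blank rows (2 and 1) were left out, 9 symbols per table that had become dates were restored from the gene ID, and the authors' mean column was not used. Gene IDs were found in the table of names for 99.98% and 99.93% of rows.

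Each table was fitted alone over genes averaging at least 1 TPM: log2(TPM + 1), limma 3.58.1 in R 4.3.3 with an intensity trend, two-sided, Benjamini-Hochberg adjustment over all genes, calls at an adjusted p under 0.05 and no fold threshold. All 32 listed members passed the filter in both tables, ACSL5 in the overexpression with a mean under 1 TPM in ΔNp63α libraries. The difference of the folds was fitted over all 10 libraries with 4 group means. The step was checked on simulated data. Every called member, and ACLY, ACACA, FASN, SCD, SREBF1, DGAT1 and DGAT2, are given in every library, with a few other members named for their values after these were seen. Up to 3 called genes with the largest fold are named per other list. Some genes that this rule names are not reported here. The members and lists were chosen with earlier results of these data known. Alternatives were a pseudocount of 0.1, rescaling by the median of ratios, no filter or a minimum mean of 5 TPM, quantile normalization, leaving out mitochondrially encoded genes, no intensity trend, a replicate block, 1 fit over both tables and leaving out each library. Promoter windows come from RefSeq on GRCh38.p14. Python 3.11.15, pandas 2.3.3, NumPy 2.4.6 and Matplotlib 3.10.9 were used. Genes that overlap a listed neighbour (FADS1, FADS2, FADS3, TECR, ACSL5, SREBF1, DGAT1 and ACACA) are uncertain where reads could be split or shared, since the use of strand in counting is not stated in the labels.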

Additional observations from a re-analysis of the deposited data

How the results depend on the processing

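In the knockdown the 10 members called higher became 4 after rescaling, 5 without the intensity trend and 2 to 14 with 1 library left out, and the 1 called lower became 0 without the filter on low values and 0 to 3 with 1 library left out. In the overexpression 0 members were called higher in the limma fit and 1 (GPAM) after quantile normalization, with 0 under every omission of a library, and the 6 called lower became 4 to 6. Of the differences between the folds, the 11 called positive became 4 after rescaling, 4 after quantile normalization and 5 to 16 with 1 library left out, and the 0 called negative became 1 (MGLL) after either scaling. The cause of these changes was not tested. Shares of all genes called are given above for the deposited values and after rescaling only. The counts in other settings have no such share beside them and are not results about the members against the table.

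Members with a fold above 0 numbered 25 and, after rescaling, 22 in the knockdown, 6 and 11 in the overexpression, and 30 and 23 for the difference. Of all genes tested, 71.9% and, after rescaling, 50.2% were above 0 in the knockdown. These shares were 46.1% and 53.2% in the overexpression, and 72.2% and 50.9% for the difference. The direction turned for these values, none of them called. After rescaling they were DGAT2 (−0.104), TECR (−0.231) and ACSL4 (−0.127) in the knockdown, ACACA (0.011), ACSL1 (0.026), FADS1 (0.055), HACD3 (0.032) and ELOVL4 (0.065) in the overexpression, and the differences of AGPAT2 (−0.092), DGAT2 (−0.087), ELOVL1 (−0.137), ELOVL7 (−0.073), GPAM (−0.027), MLXIPL (−0.214) and TECR (−0.10). After quantile normalization they were DGAT2 (−0.117), TECR (−0.033), ACSL4 (−0.194) and MLXIPL (−0.053) in the knockdown, DGAT2 (0.003) and ELOVL4 (0.140) in the overexpression, and the differences of DGAT2 (−0.118), ACSL4 (−0.047), ELOVL4 (−0.079), ELOVL7 (−0.205), GPAM (−0.225) and MLXIPL (−0.392). In the overexpression ELOVL4 was 0.002 at a pseudocount of 0.1 and FADS3 −0.043 without mitochondrially encoded genes. TP63 in the knockdown was −0.253 after rescaling and −0.203 after quantile normalization.

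Other folds had either sign depending on the library left out. In the knockdown they ranged from −0.184 to 0.154 for ACSS2, −0.312 to 0.005 for PNPLA2, −0.130 to 0.261 for ACSL4, −0.201 to 0.009 for ELOVL1, −0.033 to 0.764 for ELOVL4, −0.069 to 0.168 for TECR and −0.189 to 0.233 for TP63. In the overexpression they ranged from −0.433 to 0.122 for ACACA, −0.038 to 0.231 for ACLY, −0.205 to 0.074 for ACSL1, −0.168 to 0.114 for FADS1, −0.064 to 0.210 for FADS3, −0.139 to 0.088 for ELOVL4, −0.117 to 0.235 for ELOVL7, −0.128 to 0.003 for HACD3, −0.017 to 0.236 for LPIN1, −0.005 to 0.280 for MLXIPL and −0.219 to 0.009 for SREBF1. The differences of ELOVL4, GPAM and MLXIPL ranged from −0.033 to 0.764, −0.004 to 0.459 and −0.115 to 0.259.

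With the replicate block 14 members were called higher and 1 lower in the knockdown, 0 and 8 in the overexpression, and 16 positive and 0 negative in the difference. The share of all genes called with the block is not given here, so these counts cannot be set against it. Same-numbered libraries deviated together with r = 0.09 in the knockdown and 0.32, 0.23 and 0.09 in the overexpression, which does not show that the numbers pair the libraries. With 2 or 3 libraries a group and unknown depth, changes of genes at a few TPM are the least certain here.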

Other observations

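Beside the steps above, 5 further lists of lipid metabolism were read out of the same fits, chosen with earlier results of these data known. The enzymes that supply NADPH, the reductant that fatty acid synthesis uses, had 6 of 10 tested genes called higher and 0 lower by limma in the knockdown, against 15.1% and 3.48% of all genes, and 2 of 10 higher after rescaling, against 3.63%. With shPRMT5 replicate 1 omitted 3 genes were called higher, and with replicate 2 omitted 0 were. In the overexpression 0 of 10 were called higher and 1 lower, against 7.34% and 14.1% of all genes. The share called lower was thus near that of the table. ME1, the cytosolic malic enzyme, averaged 67.8 ± 13.3 TPM in shPRMT5 libraries and 29.2 ± 3.2 TPM in shGFP libraries (SD, n = 2 each; log2 fold 1.18, limma adjusted p = 0.000244). IDH1, a source of cytosolic NADPH, was at 0.97, with a limma adjusted p of 0.00174, and was called after rescaling (0.70). Without shPRMT5 replicate 2, ME1 (0.98) and IDH1 (0.93) were not called.

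Fatty acid oxidation had 5 of 23 tested genes called higher and 0 lower by limma in the knockdown, against 15.1% and 3.48% of all genes. After rescaling 1 of 23 (4.35%) was called higher, near the 3.63% of all genes. Fewer than the 5 were called without either shPRMT5 library. CPT1A, which admits acyl chains to mitochondria, averaged 48.3 ± 5.2 TPM in shPRMT5 libraries and 19.0 ± 1.6 TPM in shGFP libraries (SD, n = 2 each; log2 fold 1.30, limma adjusted p = 0.000110), and was called after rescaling and with any library left out. ACAA2, the mitochondrial thiolase, was at 0.88 (limma adjusted p = 0.00727) and was called neither after rescaling (0.61) nor without shPRMT5 replicate 1 (0.91) or replicate 2 (0.85). In the overexpression 4 of 22 were called higher and 3 lower, against 7.34% and 14.1% of all genes, and 0 to 2 higher and 0 to 2 lower with any 1 library left out. Among them were DECR1 at 0.63, ACADM at 0.58 and ACADS at −0.57 (limma adjusted p = 0.0194, 0.0475 and 0.0154). The DECR1 call was lost without ΔNp63α replicate 2 (0.54) or 3 (0.61) or vector replicate 3 (0.62), and the ACADS call without ΔNp63α replicate 2 (−0.53) or 3 (−0.58). The ACADM call was lost without any library other than ΔNp63α replicate 1 (0.48 to 0.62).

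In phospholipid synthesis 3 of 21 genes (14.3%) were called higher and 0 lower by limma in the knockdown, near the 15.1% and 3.48% of all genes (PCYT1A at 0.85, CDS1 at 0.83 and PTDSS1 at 0.48), and none of these 3 after rescaling or without shPRMT5 replicate 2 (0.76, 0.55 and 0.42). PCYT1A and PTDSS1 were also lost without shPRMT5 replicate 1 (0.93 and 0.54) and CDS1 without shGFP replicate 1 (0.66). After rescaling 0 of 21 were called higher in the knockdown and 1 (4.76%) lower, against 3.63% and 6.89% of all genes. In the overexpression 2 of 21 were called higher and 5 lower, against 7.34% and 14.1% of all genes, with 0 to 2 higher and 4 to 7 lower when 1 library was left out, and the 3 largest falls were those of the lysophospholipid acyltransferases MBOAT2 (−1.03), MBOAT7 (−0.92) and MBOAT1 (−0.82). MBOAT7 averaged 41.8 ± 4.7 TPM in ΔNp63α libraries and 79.6 ± 5.4 TPM in vector libraries (SD, n = 3 each; limma adjusted p = 0.00141).

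Of 7 tested lipid droplet proteins, limma called 1 (14.3%) higher and 0 lower in the knockdown, near the 15.1% and 3.48% of all genes. In the overexpression it called 0 higher and 2 (28.6%) lower, against 7.34% and 14.1% of all genes. ABHD5, the activator of PNPLA2, was the gene called higher in the knockdown, at 0.83 (limma adjusted p = 0.0318). It was not called after rescaling (0.59) or without shPRMT5 replicate 1 (0.92), shPRMT5 replicate 2 (0.74) or shGFP replicate 1 (0.69). After rescaling 0 of the 7 were called higher in the knockdown and 1 (14.3%) lower, against 3.63% and 6.89% of all genes. In the overexpression HILPDA, an inhibitor of PNPLA2, averaged 46.7 ± 1.9 TPM in ΔNp63α libraries and 182 ± 68 TPM in vector libraries (SD, n = 3 each; log2 fold −1.86, limma adjusted p = 0.000328). PLIN3, a coat protein, averaged 109.9 ± 4.7 TPM in ΔNp63α libraries and 197 ± 24 TPM in vector libraries (SD, n = 3 each; log2 fold −0.83, limma adjusted p = 0.00189).

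Of the genes of fatty acid uptake and carriage, 2 of 10 were called higher and 0 lower by limma in the knockdown (15.1% and 3.48% of all genes), and 1 of 11 higher and 4 lower in the overexpression (7.34% and 14.1% of all genes). The shares called higher, 20.0% and 9.09%, were near those of the tables, and the 2 in the knockdown were 1 without either shPRMT5 library. FABP4, a carrier of fatty acids, averaged 46.1 ± 2.3 TPM in shPRMT5 libraries and 8.76 ± 1.36 TPM in shGFP libraries (SD, n = 2 each; log2 fold 2.28, limma adjusted p = 4.11e-08). It averaged 2310.2 ± 486 TPM in ΔNp63α libraries and 411 ± 82 TPM in vector libraries (SD, n = 3 each; log2 fold 2.48, limma adjusted p = 5.05e-06). SLC27A2, a transporter of the same list, was at 0.72 in the knockdown and was called neither after rescaling (0.46) nor without any library other than shGFP replicate 2 (0.57 to 0.74). SLC27A1, another transporter of the list, was at −1.40 in the overexpression (limma adjusted p = 0.000295) and was called lower on both scales.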
